A study of Mus musculus with 6 samples.

Results

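Yap1 and Wwtr1 encode YAP and TAZ, the transcriptional coactivators of the Hippo pathway. They are described here with 8 further genes, the targets Ankrd1, Ctgf, Cyr61 and Nt5e and the pathway regulators Amotl1, Amotl2, Lats2 and Ajuba. The 10 genes were chosen by symbol, with earlier results of these data known, and all 10 were among the 23337 genes of the count files. Ajuba is listed there under its older symbol Jub and was matched through the RefSeq gene table. All 10 also passed the low-count filter, which left 13925 genes for testing.

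The mRNA came from sorted basal cells of mouse mammary epithelium, the layer that holds the contractile myoepithelial cells. There were 4 libraries from mice homozygous for the targeted vimentin allele Vimtm1Cba (KO 1 to 4) and 2 from Vimwt/wt mice (WT 1 and 2). All mice were 15 weeks old, on a mixed 129/Sv X C57BL/6 background, and received no treatment that the labels name. Each library pooled cells of 2 to 3 mice, and the cells were sorted as live, negative for CD45 and CD31, with low CD24 and high CD49f. The labels give neither a Cre nor a promoter, so the allele is not described as limited to basal cells. By the day code that each file name carries, the libraries fall into experiment 1 (KO 1, KO 2 and WT 1) and experiment 2 (KO 3, KO 4 and WT 2).

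Total counts were between 25347967 and 31200622 per library, and the fewest counts of any of the 10 genes in a library were the 73 of Ankrd1 in WT 1. Vim, which encodes the intermediate filament protein vimentin, averaged 105 ± 8.96 CPM (counts scaled to library size by the TMM method) in KO and 228 ± 18.5 CPM in WT (SD, n = 4 and 2). Its log2 fold change was -1.12 (SE 0.12, edgeR adjusted p = 0.019), and it was lower in 4 of 4 KO libraries. Without any single library other than KO 1 the adjusted p was between 0.0598 and 0.0908. The basal keratin gene Krt14 was at 4020 to 4551 CPM in KO and 3905 and 4563 CPM in WT. Krt5, another basal keratin gene, was at 1702 to 2307 CPM in KO and 2358 and 2277 CPM in WT. Of the 11 basal markers 7 had negative fold changes (median -0.08), and of the 10 luminal markers 3 did (median 0.11). None of these was called, and 2 of each list had an unadjusted p under 0.05, beside 8.57% of all genes. The luminal markers summed to 1428 to 1745 CPM in KO and 1580 and 1426 CPM in WT. Ptprc, which encodes CD45, had 0 to 4 counts per KO library, against 15 counts in WT 1 and 0 in WT 2. The 13 endothelial markers all had negative fold changes, and none had 0 counts in any library. None was called, while 12 had an unadjusted p under 0.05. Their summed level was 69.0 to 93.4 CPM in KO, against 295 CPM in WT 1 and 111 CPM in WT 2.

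In the Hippo pathway, the MST and LATS kinases phosphorylate YAP and TAZ, which holds them in the cytoplasm or leads to their degradation. When the kinases are less active, YAP and TAZ enter the nucleus and bind TEAD factors at promoters and enhancers. Tension in the actin cytoskeleton and spreading on a stiff matrix are known to favour nuclear YAP and TAZ, and several targets, among them Lats2 and Amotl2, feed back to restrain the pathway. In the mammary gland TAZ is known for a role in basal cell identity. The activity of YAP and TAZ is set largely at the protein level, which mRNA counts do not measure.

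Of the 10 genes, Ankrd1 was the 1 that passed the test of KO against WT, with 21.2 ± 3.91 CPM in KO and 2.80 ± 0.825 CPM in WT (SD, n = 4 and 2), 7.58-fold higher in KO. Amotl2 was at 1.92 times its WT level in KO and Nt5e at 0.598 times. Neither passed by genotype alone (edgeR adjusted p = 0.204 and 0.17), and both passed in the fit that also holds the experiment as a block (adjusted p = 0.00303 and 0.0249). YAP and TAZ themselves, and the abundant targets Ctgf and Cyr61, did not pass in either fit. Among all tested genes 0.079% were called by genotype alone and 1.56% with the block, against 1 and 3 of the 10 genes. Because the 10 genes were chosen with earlier results of these data known, these shares are a description and no test of the list. With the block 2 of the 10 were called higher, beside 1.12% of all genes, and 1 lower, beside 0.438%. The 3 became 2 without KO 4. Calls were also lost without WT 1 or WT 2, in fits that have 1 WT library and compare genotype within 1 experiment only. Calls over all genes were not counted in these fits with a library left out. DESeq2, which fits genotype alone with another estimate of the spread, called the same 3 members and 1.88% of all genes. The median log2 fold change was 0.10 over the 10 genes and -0.01 over all tested genes. KO and WT libraries did not overlap for 4 of the 10 genes, with Ankrd1, Amotl2 and Lats2 higher and Nt5e lower in every KO library, and for 16.2% of all tested genes.

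The 250 bases before the annotated start of 4 of these genes are given here, because Ankrd1, Amotl2 and Nt5e are the members that differed with the block and Cyr61 is the most abundant member. Sequences are from RefSeq on GRCm38.p6, the release of mm10 that the count files use, and each window ends at the base before the gene start that the count files give. They are written in the direction of transcription, with matches to GGAATG, the core of the TEAD binding motif, or its reverse complement CATTCC in capitals.
Ankrd1, chr19:36119845-36120094, minus strand: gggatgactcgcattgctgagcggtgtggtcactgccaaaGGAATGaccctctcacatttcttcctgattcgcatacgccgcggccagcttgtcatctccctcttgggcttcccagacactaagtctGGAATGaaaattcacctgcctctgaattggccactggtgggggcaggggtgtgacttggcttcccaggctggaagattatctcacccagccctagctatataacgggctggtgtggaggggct
Amotl2, chr9:102717554-102717803, plus strand: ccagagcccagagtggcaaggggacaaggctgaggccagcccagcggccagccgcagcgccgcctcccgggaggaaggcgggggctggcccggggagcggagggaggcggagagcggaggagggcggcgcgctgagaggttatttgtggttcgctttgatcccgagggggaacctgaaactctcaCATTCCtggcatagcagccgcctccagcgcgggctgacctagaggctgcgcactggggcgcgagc
Nt5e, chr9:88327359-88327608, plus strand: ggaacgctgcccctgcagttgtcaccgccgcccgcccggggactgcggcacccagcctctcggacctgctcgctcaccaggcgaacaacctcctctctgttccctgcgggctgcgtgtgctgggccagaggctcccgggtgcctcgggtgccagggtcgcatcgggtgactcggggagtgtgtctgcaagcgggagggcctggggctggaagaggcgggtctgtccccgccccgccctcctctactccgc
Cyr61, chr3:145649986-145650235, minus strand: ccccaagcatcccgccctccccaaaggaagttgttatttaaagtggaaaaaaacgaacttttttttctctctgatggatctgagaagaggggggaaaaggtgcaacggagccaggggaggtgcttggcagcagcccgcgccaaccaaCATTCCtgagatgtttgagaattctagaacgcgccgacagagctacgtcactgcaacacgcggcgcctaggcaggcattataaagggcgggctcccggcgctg

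The Ankrd1 window held 2 matches, which begin 210 and 123 bases before the gene start and read GGAATG in the direction of the gene. Amotl2 had 1 match in reverse orientation at 65 bases and Cyr61 had 1 in reverse orientation at 103 bases, while these letters were not found in the Nt5e window. The promoter table held 9 of the 10 genes, all but Ctgf. Of these, 6 had a match, since Yap1 had 1 at 141 bases, both annotated starts of Wwtr1 shared 1 and Ajuba had 2. None was found in the windows of Amotl1 and Lats2. Counted by annotated start rather than by gene, 7 of the 11 promoters of these genes held a match. Over the 32851 promoters of the table, also counted by start, 12.6% held at least 1 match in a window of this length and 1.02% held 2 or more. A match is a description of the sequence and says nothing of binding in these cells, and enhancers were not examined.

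**Figure D1:**
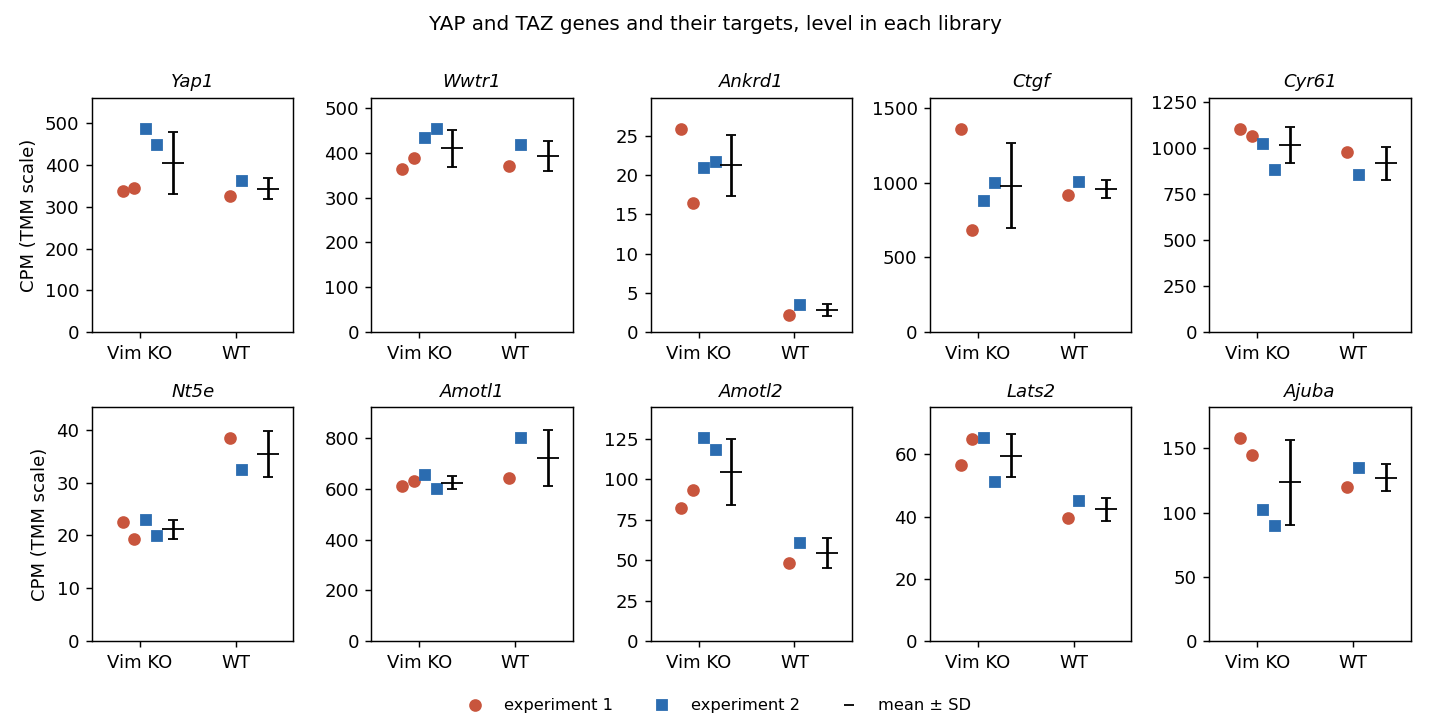
Level of each of the 10 genes in every library, in CPM on the TMM scale, with KO on the left and WT on the right of each panel. Circles are libraries of experiment 1 and squares of experiment 2, and the bar is the mean ± SD (n = 4 KO and 2 WT). The 4 KO values of Ankrd1, Amotl2 and Lats2 lie above both WT values and those of Nt5e below, while the groups overlap in the other 6 panels.

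Yap1 had 338, 345, 487 and 447 CPM in KO 1 to 4, against 325 and 362 CPM in WT 1 and 2. The libraries KO 3 and KO 4, both of experiment 2, were the highest, and KO 1 and KO 2 lay between the WT libraries. Its log2 fold change was 0.24 (SE 0.18, edgeR adjusted p = 0.845), with 0.37 within experiment 2 and 0.07 within experiment 1, and it was 0.13 without KO 3. Between the experiments Yap1 differed by 0.35, higher in experiment 2, which did not pass (SE 0.10, adjusted p = 0.0713). Wwtr1 had 364, 388, 432 and 454 CPM in KO 1 to 4 and 370 and 417 CPM in WT 1 and 2. The groups overlapped, and Wwtr1 did not pass the test (log2 fold change 0.06, SE 0.13, adjusted p = 0.966).

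Per exon length, both coactivators stood at nearly the same level. Yap1 was at 97.0 ± 17.8 RPKM (CPM per kilobase of exon) in KO and 82.4 ± 6.24 RPKM in WT, and Wwtr1 at 85.6 ± 8.51 RPKM in KO and 82.2 ± 6.88 RPKM in WT (SD, n = 4 and 2). The ratio of Wwtr1 to Yap1 in RPKM was 0.939, 0.979, 0.773 and 0.884 in KO 1 to 4 and 0.991 and 1.003 in WT 1 and 2. It was below both WT values in every KO library, by 0.16 on average on the log2 scale. An exact permutation test over the 15 divisions of the libraries gave p = 0.2 (2-sided), and the smallest p this design allows is 0.0667. The log2 difference was -0.28 within experiment 2 and -0.05 within experiment 1.

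**Figure D2:**
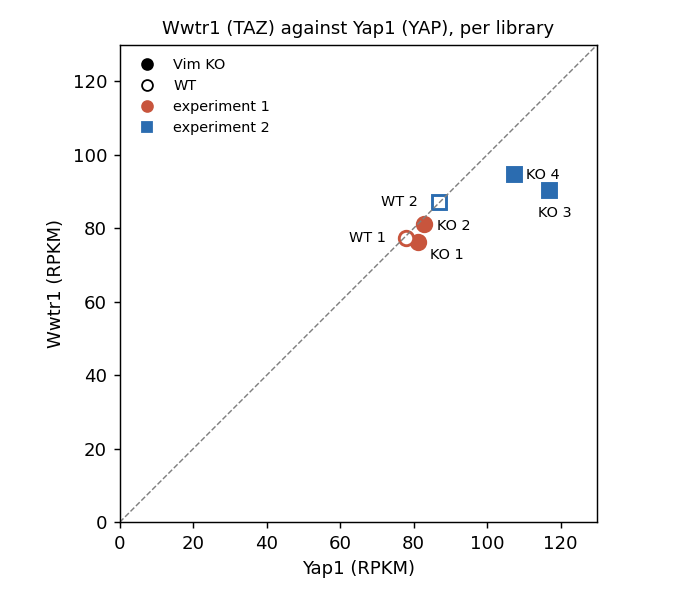
Level of Wwtr1 against Yap1 in RPKM, 1 point per library, with filled symbols for KO, open symbols for WT, circles for experiment 1 and squares for experiment 2. The dashed line marks equal levels. WT 1 and WT 2 lie next to the line, and KO 3 and KO 4 lie furthest below it, at ratios of 0.773 and 0.884.

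Among the regulators, Amotl2, an angiomotin-like junction protein that binds YAP and TAZ and restrains them, had 82.3, 93.5, 126 and 118 CPM in KO 1 to 4 and 48.2 and 61.0 CPM in WT 1 and 2. Every KO library was above both WT libraries, and both genotypes were higher in experiment 2. The log2 fold change was 0.94 (SE 0.20, adjusted p = 0.204) by genotype alone and 0.93 (SE 0.10, adjusted p = 0.00303) with the block. The difference was 0.998 within experiment 2 and 0.86 within experiment 1. With the block the call was lost without WT 1 or WT 2, where the log2 fold change was 1.02 and 0.87. Each of these fits has 1 WT library and compares genotype within 1 experiment only. Amotl2 was also the 1 member that differed between the experiments, by 0.43 (SE 0.09, adjusted p = 0.0272), higher in experiment 2, where 6.43% of all genes were called.

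Its relative Amotl1 had 611, 632, 655 and 598 CPM in KO 1 to 4 and 643 and 800 CPM in WT 1 and 2. KO 3 lay between the WT libraries and the other 3 below both, and WT 2 was the highest. The log2 fold change was -0.21 (SE 0.13, adjusted p = 0.763), and it was -0.34 without WT 1 and -0.04 without WT 2. Among the KO libraries alone Amotl1 was the least variable of the 10 genes, with an SD of 0.0575 on the log2 CPM scale, below that of all but 4.80% of tested genes.

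Lats2, a kinase that phosphorylates YAP and TAZ and is itself a target of them, had 56.7, 65.1, 65.3 and 51.2 CPM in KO 1 to 4 and 39.7 and 45.0 CPM in WT 1 and 2. It was higher in 4 of 4 KO libraries, as were 7.6% of all tested genes, but did not pass the test (log2 fold change 0.49, SE 0.14, adjusted p = 0.317, or 0.102 with the block). Without KO 1 the adjusted p with the block was 0.0331. Within experiment 2 the difference was 0.36 and within experiment 1 it was 0.61.

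Ajuba, a LIM-domain protein that binds LATS kinases and limits their action on YAP, lay on opposite sides of WT in the 2 experiments. It had 158 and 145 CPM in KO 1 and KO 2, against 120 CPM in WT 1, and 102 and 89.3 CPM in KO 3 and KO 4, against 135 CPM in WT 2. Over all libraries the log2 fold change was -0.04 (SE 0.23, adjusted p = 0.993). The within-experiment differences were -0.50 in experiment 2 and 0.34 in experiment 1, and the interaction test of this contrast did not pass over all genes (unadjusted p = 0.00382, adjusted p = 0.998). Ajuba was the 1 member with an unadjusted p under 0.05 in that test, as had 4.21% of all genes.

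**Figure D3:**
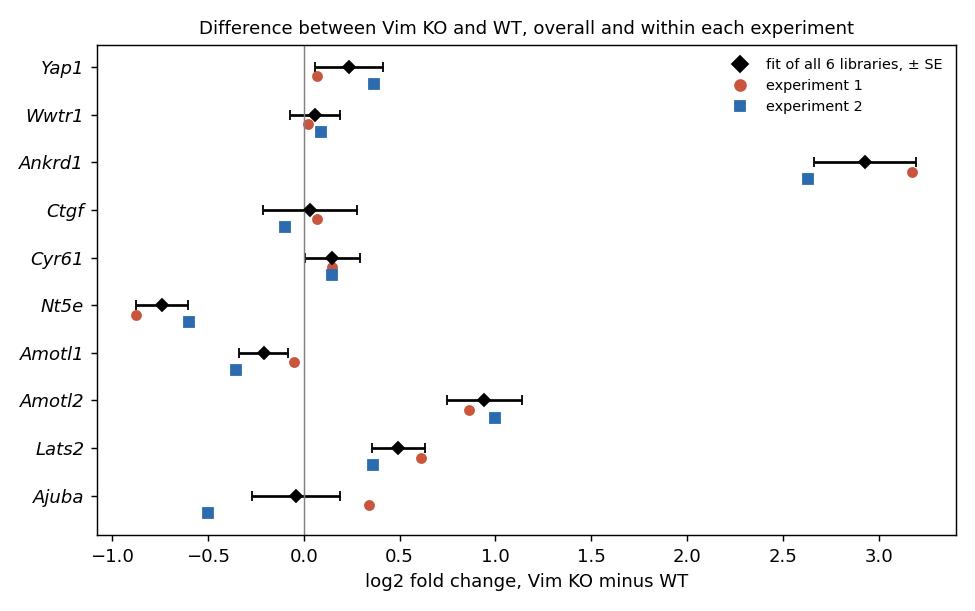
Log2 fold change, KO minus WT, of the 10 genes. Diamonds are the fit of all 6 libraries by genotype alone, with bars of ± SE, and the circle and square beside each are the differences within experiment 1 and experiment 2. Ankrd1 lies at 2.93, Amotl2 at 0.94, Lats2 at 0.49 and Nt5e at -0.74 with both experiments on the same side of 0, while the experiments fall on opposite sides for Ctgf and Ajuba.

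Ankrd1 is a muscle ankyrin-repeat protein, best known from heart and stretched muscle, and a widely used target of YAP and TAZ. Its counts were 825, 415, 623 and 552 in KO 1 to 4 and 73 and 88 in WT 1 and 2, which is 25.9, 16.4, 20.9 and 21.7 CPM in KO and 2.22 and 3.39 CPM in WT. The lowest KO library, KO 2, was still several times above WT 2, and the groups did not overlap. Its log2 fold change was 2.93 (SE 0.27, edgeR adjusted p = 0.011), or 2.94 (SE 0.25, adjusted p = 9.65e-04) with the block. The difference was 2.63 within experiment 2 and 3.18 within experiment 1, and the interaction test gave an adjusted p = 0.998. By genotype alone the call was lost without KO 3 (adjusted p = 0.0572) or WT 1, and with the block it was lost without WT 1. Fits without WT 1 have 1 WT library, and with the block they compare genotype within experiment 2 only. The log2 fold change stayed between 2.67 and 3.26 when any 1 library was left out, with or without the block.

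The muscle relatives of Ankrd1 did not pass the test or had too few counts for it. Ankrd23, another ankyrin-repeat gene of striated muscle, was at 5.22 ± 1.39 CPM in KO and 7.44 ± 0.449 CPM in WT (log2 fold change -0.51, SE 0.26, adjusted p = 0.679), and Ankrd2 had 1 to 5 counts per KO library and 6 and 7 in WT. The 8 skeletal muscle markers summed to 1.62 to 2.52 CPM in KO and 1.95 and 1.35 CPM in WT. The level of Ankrd1 alone was above the sum of these 8 markers in all libraries. Only 3 of the 8 had enough counts for the test, 2 of them with positive fold changes (median 0.52, from -0.30 to 1.64), and none was called. Myh4 had 10, 4, 12 and 11 counts in KO 1 to 4 and 3 in each WT library. The part of muscle RNA in the Ankrd1 difference was not tested.

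The 5 genes whose profile over the 6 libraries was nearest to that of Ankrd1 were Itga4, Frmpd4, Uts2d, Shh and Fibcd1, with Euclidean distances of 0.983 to 1.31 between centred log2 CPM values. Shh, which encodes the ligand Sonic hedgehog, had 31, 40, 55 and 66 counts in KO 1 to 4 and 6 in each WT library. Frmpd4 had 7.95 ± 2.37 CPM in KO and 1.36 ± 0.85 CPM in WT. Itga4, the integrin alpha-4 gene, had 7 to 20 counts per KO library and 1 in each WT library, so its profile rests on few reads. These genes were picked for their likeness in the same libraries, and their levels are given as a description. The 5 nearest to Amotl2 were Grik3, Deptor, Zkscan5, Nfkbia and Nrp2, with distances of 0.206 to 0.268. Nfkbia, which encodes an inhibitor of NF-kB, had 647, 833, 929 and 931 CPM in KO 1 to 4 and 379 and 552 CPM in WT 1 and 2.

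Ctgf and Cyr61 encode secreted matricellular proteins of the CCN family and are the standard readouts of YAP and TAZ activity. Cyr61 had 1106, 1067, 1021 and 881 CPM in KO 1 to 4 and 982 and 855 CPM in WT 1 and 2, and did not pass the test (log2 fold change 0.15, SE 0.14, adjusted p = 0.907). Its log2 fold change was 0.27 without WT 1 and 0.06 without WT 2. KO 1, KO 2 and KO 3 lay above both WT libraries and KO 4 between them. Ctgf had 1362, 681, 879 and 1000 CPM in KO 1 to 4 and 917 and 1003 CPM in WT 1 and 2. KO 1 was the highest and KO 2 the lowest of all 6 libraries, both of them from experiment 1, and the log2 fold change was 0.03 (SE 0.25, adjusted p = 0.996). With this SE, the values do not show that Ctgf is at the same level in KO and WT.

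The highest and the lowest KO library differed 2.00-fold for Ctgf and 1.26-fold for Cyr61. On the log2 CPM scale the SD among KO libraries was 0.42 for Ctgf, the largest of the 10 genes and above that of 80.6% of tested genes. Both genes are also known to be induced rapidly by serum and stress, as immediate early genes are. The 14 immediate early genes summed to 14119 to 19818 CPM in KO, highest in KO 2, and to 15678 and 15659 CPM in WT 1 and 2, and none of them was called. Their part in the levels of Ctgf and Cyr61 was not tested.

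Nt5e encodes CD73, a surface enzyme that makes adenosine from AMP. It had 22.5, 19.4, 22.9 and 19.9 CPM in KO 1 to 4 and 38.4 and 32.4 CPM in WT 1 and 2. All KO libraries were below both WT libraries, as were those of 8.57% of tested genes. The log2 fold change was -0.74 (SE 0.14, adjusted p = 0.17) by genotype alone and -0.74 (SE 0.13, adjusted p = 0.0249) with the block. With the block the call was lost without KO 4 (adjusted p = 0.0894). It was also lost without WT 1 or WT 2, where the log2 fold change was -0.58 and -0.87. Those fits without a WT library have 1 WT library left and compare genotype within 1 experiment only. Endothelial cells also carry CD73, and the endothelial markers were highest in WT 1, the library with the most Nt5e. Among the KO libraries their sum was highest in KO 2 (93.4 CPM), which had the least Nt5e, and lowest in KO 1 (69.0 CPM). Within experiment 2 the summed endothelial level was 85.6 and 71.4 CPM in KO 3 and KO 4 and 111 CPM in WT 2. The log2 differences there were -1.17 for Pecam1 and -1.18 for Cdh5, against -2.57 and -3.12 in experiment 1. Eng, another marker of the list, was higher in KO there, at 31.3 and 28.7 CPM against 24.7 CPM in WT 2. The difference in Nt5e was -0.60 within experiment 2 and -0.88 within experiment 1. Fibroblasts and other stromal cells can carry CD73 as well. Of the fibroblast markers 7 of 8 had negative fold changes (median -0.34), with sums of 338 to 436 CPM in KO and 328 and 440 CPM in WT 1 and 2. Most of these sums was Pdpn, at 199 to 328 CPM in KO and 172 and 303 CPM in WT 1 and 2. Lum was at 0.630 to 0.869 CPM in KO and 2.55 and 1.62 CPM in WT 1 and 2, and Dcn at 55.0 to 88.9 CPM and 73.9 and 74.2 CPM. Of the pericyte markers 6 of 7 had negative fold changes (median -0.43), with sums of 33.8 to 46.0 CPM in KO and 57.1 and 36.3 CPM in WT 1 and 2. None of these markers was called, and none of them was at 0 in any library. The part of endothelial, fibroblast or pericyte RNA in the Nt5e difference was not tested, and in sorted bulk cells fewer cells of a type and less RNA per cell cannot be told apart.

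In order of mean level per length, Cyr61 came before Ctgf, Yap1, Wwtr1, Amotl1, Ajuba, Amotl2, Lats2, Ankrd1 and Nt5e, from 486 down to 7.24 RPKM. The ranges over the 6 libraries overlapped for all neighbours in this order but Ctgf and Yap1, and Amotl1 and Ajuba. Cyr61 stood above Ctgf in 5 of 6 libraries and Yap1 above Wwtr1 in 5 of 6. Cyr61 and Ctgf were above 99.5% and 99.4% of tested genes in mean RPKM, and Yap1 and Wwtr1 above 95.1% and 94.6%. By the means of each genotype, Ankrd1 and Nt5e held opposite places around Lats2. In KO, Ankrd1 (12.04 ± 2.21 RPKM) came before Lats2 (10.7 ± 1.24 RPKM) and Nt5e (5.92 ± 0.502 RPKM) was the lowest of the 10. In WT, Nt5e (9.89 ± 1.1998 RPKM) came before Lats2 (7.63 ± 0.671 RPKM) and Ankrd1 (1.59 ± 0.467 RPKM) was the lowest.

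The 10 genes lie on 5 chromosomes, 4 of them on chromosome 9, where Yap1 spans 7932001 to 8004596, Amotl1 14541967 to 14615000, Nt5e 88327609 to 88372089 and Amotl2 102717804 to 102733417 (mm10). Ankrd1 is on chromosome 19 at 36111965 to 36119844. No exon of the 10 genes overlapped an exon of another listed gene on either strand.

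Of 16 other known targets of YAP and TAZ, 15 were tested, with 11 above 0 and 4 below and a median log2 fold change of 0.13. None was called by genotype alone, where 0.079% of all genes were. With the block 1 of 15 rose, against 1.12% of all genes called higher, and none fell. It was Ptpn14, a phosphatase that binds YAP and holds it back, which had 274, 390, 375 and 400 CPM in KO 1 to 4 and 211 and 229 CPM in WT 1 and 2. Its log2 fold change was 0.71 (SE 0.17, adjusted p = 0.256) by genotype alone and 0.71 (SE 0.14, adjusted p = 0.0422) with the block. With the block the Ptpn14 call remained without KO 1 or KO 2 (adjusted p = 7.39e-04 and 0.0327) and was lost without any of the other libraries. Without WT 1 or WT 2 its log2 fold change was 0.78 and 0.65, in fits that have 1 WT library left. At the other end Igfbp3, a binding protein of insulin-like growth factors, had 1478 ± 381 CPM in KO and 2612 ± 786 CPM in WT and was not called (log2 fold change -0.82, SE 0.26, adjusted p = 0.391). Igfbp3 had the lowest fold change of the list and was likewise chosen for naming with its values known. Foxf2, with few counts, was not tested.

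The 24 other Hippo regulators were all tested, with 11 above 0, 13 below and a median of -0.02, and none was called in either fit. By p of the fit by genotype alone, Wwc2, a scaffold that promotes LATS activity, led (log2 fold change 0.41, SE 0.13, adjusted p = 0.381). Sav1, the adaptor of the MST kinases, came next (-0.32, SE 0.12, adjusted p = 0.497). With the block the leading genes by p were Frmd6 (0.60, SE 0.14, adjusted p = 0.0715) and Dlg5 (0.40, SE 0.11, adjusted p = 0.104). Frmd6 and Dlg5 were chosen for naming with their values known. Lats1, the sister kinase of Lats2, averaged 215 ± 17.4 CPM in KO and 220 ± 28.8 CPM in WT and was chosen for naming with its values known. Of the 8 TEAD and VGLL genes 6 were tested, with 3 on either side of 0 and a median of -0.06, and none was called. Vgll4, a cofactor that competes with YAP for TEAD, was not called (log2 fold change 0.41, SE 0.15, adjusted p = 0.481), and neither was Tead4 (-0.49, SE 0.26, adjusted p = 0.692). Both were the leading genes of this list by p. Vgll1 and Vgll2 had 0 counts in every library.

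**Figure D4:**
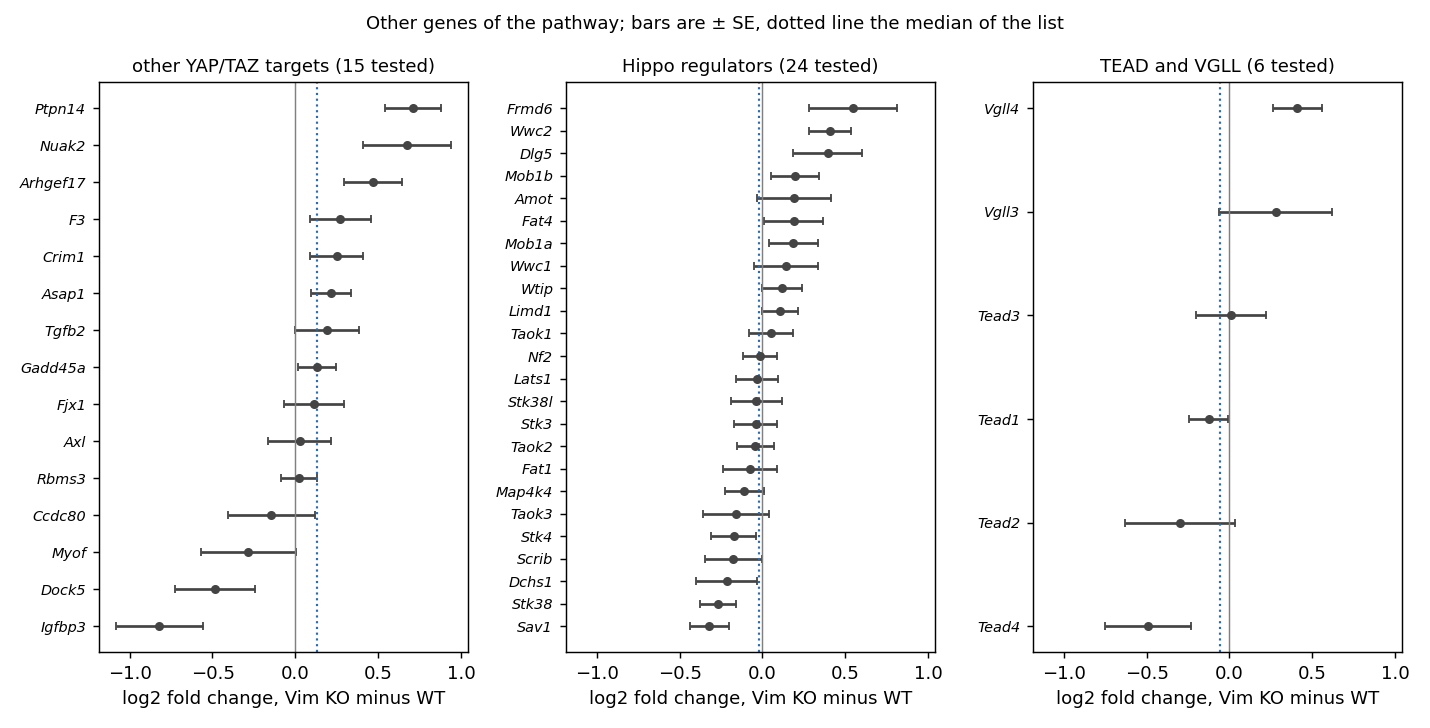
Log2 fold change, KO minus WT, of the tested genes of 3 further lists, 15 other targets, 24 Hippo regulators and 6 TEAD and VGLL genes, by genotype alone. Points are fitted values with bars of ± SE and the dotted line is the median of the list. The medians are 0.13, -0.02 and -0.06, and the values run from -0.82 for Igfbp3 to 0.71 for Ptpn14.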

How the data were processed

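Stranded mRNA libraries of sorted cells were sequenced from 4 KO and 2 WT samples, each a pool of mice. Deposited were unnormalized counts of reads for each gene. The authors obtained them with featureCounts 1.5.1 from exons of the UCSC mm10 annotation, in the reverse-stranded setting (option 2) and without options for multi-mapped reads, per the file headers. bcl2fastq 2.17, STAR 2.5.2b and Subread 1.5.1 are named in the submitters' processing notes. Reads shared with near-identical genes were therefore not counted.

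From these counts, CPM and RPKM were computed on the TMM scale, with the exon lengths of the files. KO was compared with WT over all genes by edgeR 4.0.16 in R 4.3.3 (filterByExpr, glmQLFit robust, glmQLFTest, 2-sided, genotype as the only term), and a gene was called where p, adjusted by Benjamini-Hochberg over all tested genes, was under 0.05. Log2 CPM used a prior count of 2. DESeq2 1.42.0, limma-voom 3.58.1, other scalings, no filter, a looser threshold and leaving out each library were alternatives. The fits were also run on simulated counts. Those for KO against WT held no difference between experiments, so they do not show how the block fit performs where experiments differ.

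The labels speak of separate experiments without assigning samples, and the day code was used as a technical batch. Deviations from the group means correlated between KO and WT libraries of the same experiment (r across genes from 0.251 to 0.414), so experiment was treated as pairing libraries and fitted as a replicate block. With 2 WT libraries these r values are not independent. The samples are labelled as separate pools, and p-values measure the spread between such pools.

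The genes, the lists and the rule for named genes were chosen with earlier results of these data known. Named were the 10 genes, Vim, cell markers, muscle ankyrin-repeat relatives and the 5 genes nearest in profile to Ankrd1 and to Amotl2. Of each pathway list the called genes were named, or else the 2 leading genes by p of the fit by genotype alone.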

Additional observations from a re-analysis of the deposited data

Results flagged for a closer look

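Ajuba was higher in both KO libraries than in the WT library of experiment 1 and lower in both KO libraries than in the WT library of experiment 2. The difference of the log2 fold changes, experiment 2 minus experiment 1, was -0.84 (SE 0.20, unadjusted p = 0.00382 and adjusted p = 0.998 by edgeR's interaction test). Over all genes this test called 0 genes, 586 had an unadjusted p under 0.05 (4.21%), and limma-voom also called 0. Of the 10 genes, Ajuba was the 1 with an unadjusted p under 0.05. In none of the 10 genes did a single KO library stand far from the other 3 by Dixon's criterion.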

How the results depend on the processing

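By genotype alone 11 genes and 1 of the 10 members were called. With the experiment as a replicate block the counts were 217 genes and 3 members, and by DESeq2 they were 265 genes and 3 members, in both cases Ankrd1, Amotl2 and Nt5e. Leaving out 1 library at a time gave 3 to 15 genes and 0 to 1 members by genotype alone, with 5 genes without KO 2, 3 without KO 3, 5 without KO 4 and 4 without WT 1. With the block the members called numbered 4 without KO 1, 3 without KO 2 or KO 3 and 2 without KO 4. Calls were also lost without WT 1 or WT 2, which leaves 1 WT library. Calls over all genes were not counted for these fits with the block, so the member counts have no share beside them. Other scalings, no filter, limma-voom and a threshold of 0.1 gave 10 to 14 genes and 1 member. Members called between the experiments were 1 of the 10, beside 6.43% of all genes. They were 0 when scaled by total counts only and 2 with no filter, where calls over all genes were not counted. The Wwtr1 to Yap1 difference stayed between -0.21 and -0.10 when 1 library was left out.

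Title numbers gave no pairing (r across genes 0.316 for KO 1 and WT 1, -0.286 for KO 2 and WT 2). A replicate block by these numbers on 4 libraries called 12 genes and 1 member, and turned the sign of Yap1 (-0.0058), Wwtr1 (-0.062) and Ajuba (0.25). Members that were never called also turned sign as follows. Wwtr1 was -0.0063 without WT 1, and 0.148 at most when 1 library was left out. Ctgf was -0.017 by limma-voom, -0.15 without KO 1 and -0.01 without WT 1 (0.187 at most, without KO 2), and with the block -0.22 and -0.077 without KO 1 and without WT 1. Ajuba was 0.04 without KO 3, 0.086 without KO 4 and 0.05 without WT 2 (-0.164 at the lowest, without KO 1), and with the block 0.017 without KO 4 and 0.34 without WT 2. The causes were not tested. The median of the other targets was 0.03 without WT 1 and 0.31 without WT 2, that of the Hippo regulators 0.10 without WT 2, and that of the TEAD and VGLL genes 0.12 without WT 1 and -0.20 without WT 2.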
